A study of Mus musculus with 4 samples.

Results

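The Zfp genes of the mouse are zinc finger genes named by number, and those described here were chosen by name and level, as rows with the symbol Zfp followed by digits only that averaged 1 FPKM or more over the 4 libraries. FPKM is a level per length, in fragments for each kilobase and for the depth of the library. Zfp568 is one of them. The table held 54446 gene rows, 374 of them with such a symbol, and 189 reached that mean. Of the other 185 rows, 31 were at 0 in every library and 154 were above 0 in at least 1 library. The libraries were made from polyadenylated RNA of satellite cells, the resident stem cells of skeletal muscle, isolated from the hindlimb of C57BL/6 mice and cultured in F10 medium with 10% HS. There were 2 groups of 2 libraries, cells given siRNA against the long non-coding RNA LncMyod for 48 h and cells given control siRNA. Both groups shared the strain, the medium and the 48 h after siRNA, but not the siRNA itself. The age and sex of the mice were not given in the labels. The control samples repeat the knockdown text in their treatment protocol, so the groups rest on titles, descriptions and treatment tags. None of the gene rows is named LncMyod, and its level was not analysed here. The origin of replicates (culture or animal) was not given, and p-values therefore measure the spread between these libraries, which may be technical.

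Most proteins of this family carry C2H2 zinc fingers, small folds in which a pair of cysteines and a pair of histidines hold a zinc ion and neighbouring residues read bases of DNA. Many also carry a KRAB box, which binds Trim28 (KAP1), and Trim28 in turn brings Setdb1 and other enzymes of heterochromatin to the bound site. KRAB zinc finger genes lie in clusters of similar copies, and known members silence retroelements and guard imprinted genes, while family members without the box include transcription factors, RNA-binding proteins and ribosome assembly factors.

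Of the 189 genes, 188 were annotated as protein coding in GENCODE M21, and Zfp125 was annotated as a transcribed pseudogene. A C2H2 finger was found by sequence pattern in the proteins of 184, and a KRAB box in 97. Over all 22494 mouse proteins searched in the same way, 1.51% held a KRAB box and 3.83% a C2H2 finger. The 5 genes with no C2H2 finger were Zfp125, Zfp330, Zfp36, Zfp365 and Zfp703, and 2 of them, Zfp36 and Zfp330, matched a CCCH pattern instead. A SCAN box, a dimerisation domain, was found in Zfp202, Zfp263, Zfp397 and Zfp444. The genes with a KRAB box had a median of 12 fingers and a maximum of 23, and those without one had a median of 7 and a maximum of 28.

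Levels were low for most of the family. The median of the mean levels was 2.60 FPKM, with 72 genes under 2 FPKM and 18 at 10 FPKM or more, and 138 genes were at 1 FPKM or more in all 4 libraries. The members just inside the limit of 1 FPKM were Zfp219 with a mean of 1.01, Zfp248 with 1.01 and Zfp654 with 1.04, and the rows just outside it were Zfp236 with 0.981, Zfp97 with 0.971 and Zfp112 with 0.959. The limit was passed in both group means by 178 genes. It was passed in the knockdown mean alone by 9 (Zfp113, Zfp62, Zfp654, Zfp248, Zfp157, Zfp956, Zfp329, Zfp597 and Zfp583) and in the control mean alone by 2 (Zfp41 and Zfp219). Genes with a KRAB box had a median mean level of 2.33 FPKM, and those without one had 3.30 FPKM.

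Zfp706, a small protein with 1 finger found here that mouse embryonic stem cells need to leave self-renewal, had the highest level. It had 102 and 90.1 FPKM in knockdown libraries, against 105 and 107 FPKM in control libraries. Zfp106, an RNA-binding protein needed for neuromuscular integrity in mice, came next with 54.0 and 47.4 FPKM in knockdown, against 48.6 and 50.1 FPKM in control. For Zfp706 both knockdown libraries were below both controls by a small margin, and for Zfp106 the groups overlapped. Zfp207 (BuGZ), which loads Bub3 onto kinetochores, had 31.2 and 31.9 FPKM in knockdown, against 33.6 and 31.1 FPKM in control. Zfp830 had 22.4 and 22.0 FPKM in knockdown, against 21.6 and 20.1 FPKM in control. The KRAB genes with the highest means were Zfp869, with 21.8 and 13.8 FPKM in knockdown, against 19.4 and 19.5 FPKM in control, and Zfp948. In the order of the 12 highest means, Zfp706, Zfp106 and Zfp207 were apart from each other in all libraries, and each later gene overlapped in its libraries with the next.

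**Figure D1:**
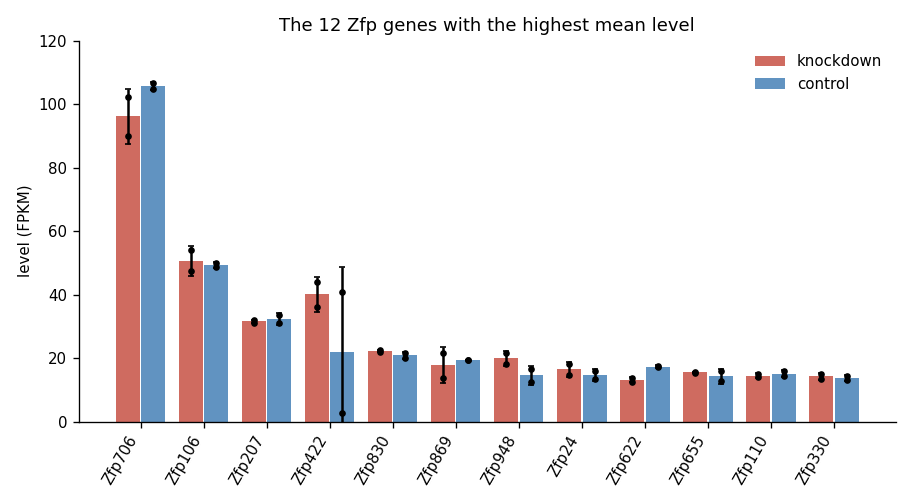
Levels in FPKM (vertical axis) of the 12 Zfp genes with the highest means, with knockdown bars left of control bars. Bars are means of 2 libraries, error bars are SD and points are the libraries, and Zfp422 stands out by its control libraries at 2.86 and 40.8 FPKM.

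The question was which Zfp genes differed between cells given siRNA against LncMyod and control cells. No Zfp gene passed the adjusted threshold. The fit was limma on log2(FPKM + 1) over the 10900 genes that averaged 1 FPKM or more, with Benjamini-Hochberg adjustment and a threshold of 0.05. Of all genes tested, 6 passed it, or 0.055%, and 0 of the 189 Zfp genes did. At an unadjusted p under 0.05 there were 10 Zfp genes, or 5.29%, against 772 of all genes tested, or 7.08%. Of these, 7 were higher in knockdown and 3 lower, where the share of all genes tested was 4.39% higher and 2.7% lower. The counts of the family were thus near or below the share of all genes.

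Small shifts to the higher side were more frequent than to the lower side, in the family as in all genes. The log2 fold change, knockdown minus control, was above 0 for 116 Zfp genes (61.4%) and below 0 for 73, and it was above 0 for 54.8% of all genes tested. Its median was 0.09 over the Zfp genes and 0.03 over all genes. In 41 Zfp genes both knockdown libraries exceeded both controls (21.7%, all genes 22.1%), and in 22 both were below (11.6%, all genes 16.3%). After quantile normalization these counts were 29 and 27, and 100 Zfp genes had a log2 fold change above 0. The shares of all genes after that step are not given here. Among the 178 genes that passed the limit in both groups, the median was 0.06, against 0.02 over the 10406 such genes of the table. At means of 1 to 2 FPKM the median was 0.11 over 72 Zfp genes and 0.07 over 1885 genes tested, and at 2 to 5 FPKM it was 0.09 over 68 and 0.07 over 2642. At 5 to 10 FPKM it was 0.0097 over 31 Zfp genes and 0.05 over 1846 genes tested, and both knockdown libraries were above both controls in 9.68% and 23.8%. At 10 FPKM and above it was 0.07 over 18 Zfp genes and -0.0067 over 4527 genes tested, and both knockdown libraries were above in 33.3% and 18.7%. The median of the Zfp genes was thus above that of all genes in 3 of these 4 ranges of level and below it at 5 to 10 FPKM, which was not tested.

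Most differences were small against their error. The log2 fold change was under 0.5 in size for 170 of the 189 genes and 1 or more for 3, Zfp568, Zfp422 and Zfp62. Standard errors had a median of 0.24 and 95% intervals a median half-width of 0.58. A transcript of 1 kb at a level of 1 FPKM rests on 36.6 to 41.1 reads of 150 nt. Summed over the 189 genes, the level was 997 and 978 FPKM in knockdown, which was 0.314% and 0.305% of all FPKM. In control it was 889 and 957 FPKM, or 0.276% and 0.297%. The difference of 64.3 FPKM between the group means stood beside SDs of 13.1 in knockdown and 48.0 in control, and an exact permutation test of 2 against 2 libraries cannot give a p below 0.333. That difference was 30.4 FPKM without control replicate 1 and 98.2 FPKM without control replicate 2.

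**Figure D2:**
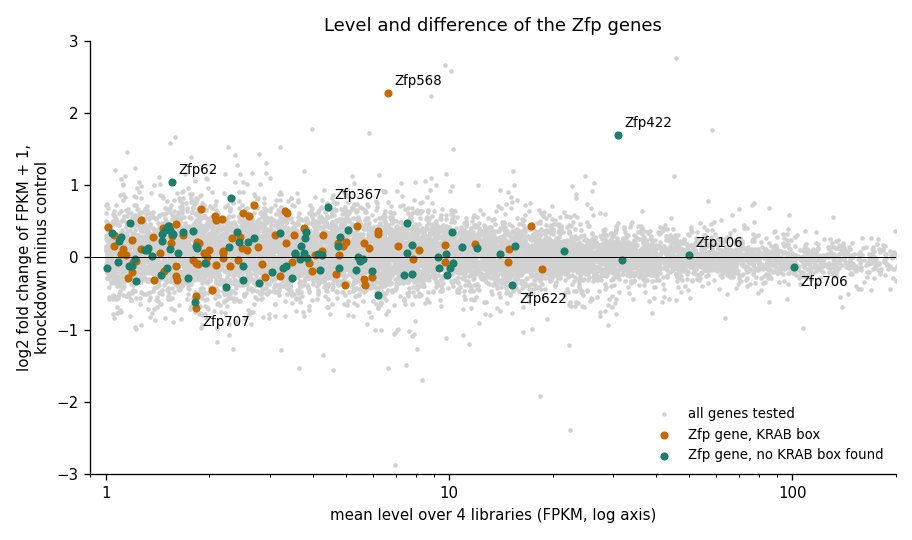
Mean level over the 4 libraries (horizontal log axis, FPKM) against the log2 fold change of FPKM + 1, knockdown minus control (vertical axis), for the 189 Zfp genes, with KRAB genes in orange, others in green and all genes tested in grey. Grey points beyond the axis ranges are not drawn. Zfp568 at 2.27, Zfp422 at 1.69 and Zfp62 at 1.04 lie apart from the other Zfp genes.

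Zfp568 had the largest difference in the family when all 4 libraries were fitted. It codes for a KRAB protein that silences a placenta-specific transcript of Igf2 in the mouse embryo, and 11 C2H2 fingers were found in its sequence. It had 11.8 and 11.4 FPKM in knockdown libraries, against 1.09 and 2.24 FPKM in control libraries. Both knockdown libraries were above both controls, and the mean was 11.6 ± 0.24 FPKM in knockdown and 1.67 ± 0.81 FPKM in control (SD, n = 2 each), a ratio of 6.95. The log2 fold change was 2.27 ± 0.25 (SE) with a limma adjusted p of 0.116. It ranged from 1.96 without control replicate 1 to 2.59 without control replicate 2. The gene was singled out with this difference known, so these values describe it and add no support. Zfp568 lies on chromosome 7, 29983955 to 30028282, plus strand (GRCm38), with 6 annotated transcripts of 500 to 6867 nt. None of its exonic bases were shared with another annotated gene, and none of its 75-base words occurred in another gene. A stretch of its coding sequence (GRCm38, chr7:30022724-30022807, plus strand) is printed to show the repeat that defines the family, 1 finger and the linker to the next, with the codons of the zinc-binding cysteines and histidines in capitals.
Zfp568: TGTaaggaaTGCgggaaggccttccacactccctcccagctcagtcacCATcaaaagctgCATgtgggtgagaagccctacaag

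The genes around Zfp568 had log2 fold changes centred near 0. Within 1 Mb there were 137 rows, 37 of them tested, and 10 of those were Zfp genes. The median log2 fold change of the tested genes other than Zfp568 was 0.02, and that of the 9 other Zfp genes was 0.06, with 5 above 0. The nearest upstream tested gene, C230062I16Rik, had 2.86 and 3.41 FPKM in knockdown, against 2.63 and 3.18 FPKM in control. The nearest downstream Zfp gene, Zfp14, was below the limit with 0.714 and 0.270 FPKM in knockdown, against 0.595 and 0.487 FPKM in control. Of the 9 other Zfp genes, Zfp382, a KRAB gene, was the one with both knockdown libraries above both controls, with 3.31 and 3.12 FPKM in knockdown, against 2.22 and 1.37 FPKM in control. Zfp27 was the one with both below, with 1.89 and 1.63 FPKM in knockdown, against 2.22 and 3.19 FPKM in control. Of the 37 tested genes, Zfp568 included, both knockdown libraries were above both controls in 6 and below in 5. Over all genes tested these shares were 22.1% and 16.3%. Gm21982, one of the 6 genes called over the whole table, also lies in this window, 613 kb from Zfp568, with 0.179 and 0.171 FPKM in knockdown, against 13.1 and 13.4 FPKM in control. Its annotated span overlaps those of Rbm42 and Haus5 on the same strand, which had log2 fold changes of 0.21 and 0.19. How reads were divided among these genes was not tested. Igf2, the known target of Zfp568 in the embryo, had 1.53 and 0.776 FPKM in knockdown, against 1.51 and 1.33 FPKM in control. H19, the non-coding gene beside it, had 66.1 and 145 FPKM in knockdown, against 157 and 81.7 FPKM in control. For both the groups overlapped, and a value per gene does not separate the placental transcript of Igf2 from others.

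**Figure D3:**
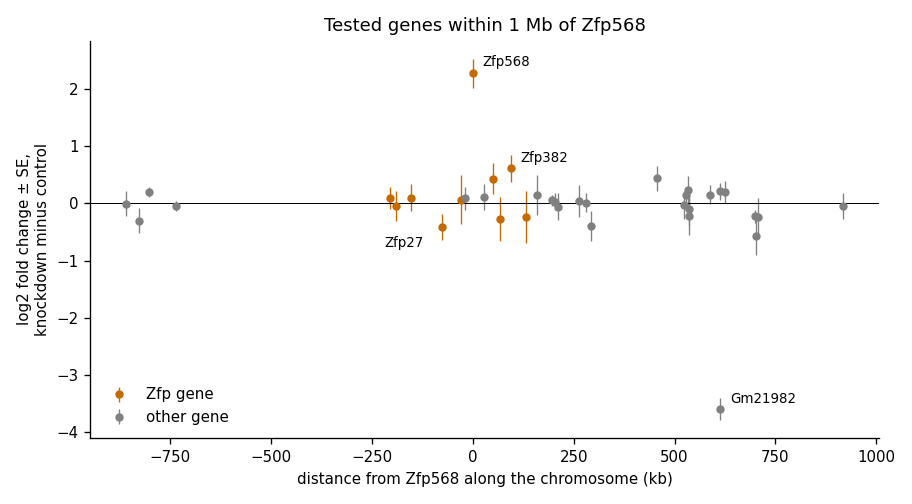
Log2 fold change with its SE (vertical axis), knockdown minus control, of the 37 tested genes within 1 Mb of Zfp568, by distance from it in kb (horizontal axis), with Zfp genes in orange and other genes in grey. Zfp568 at 2.27 and Gm21982 at -3.60 lie apart from the rest, and the span of Gm21982 overlaps those of Rbm42 and Haus5.

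Besides Zfp568, 6 Zfp genes were higher in knockdown at an unadjusted p under 0.05, with limma adjusted p-values from 0.607 to 0.692. Zfp367, whose human counterpart was described as an activator in erythroid cells, had 6.04 and 5.38 FPKM in knockdown, against 3.13 and 3.13 FPKM in control. The control replicates were close to each other and the groups were apart, with a log2 fold change of 0.70 ± 0.18 (SE), although 10.9% of its exonic bases are shared with the antisense gene Gm47513. Zfp763, a KRAB gene, had 4.06 and 3.14 FPKM in knockdown, against 1.84 and 1.72 FPKM in control. Zfp952, next to it in the same cluster and also a KRAB gene, had 3.47 and 3.16 FPKM in knockdown, against 2.13 and 1.70 FPKM in control. In both genes the groups were apart, and the log2 fold changes were 0.72 ± 0.21 and 0.57 ± 0.21 (SE). The KRAB genes Zfp930, Zfp160 and Zfp382 completed the set. Zfp930 had 2.96 and 2.41 FPKM in knockdown, against 1.47 and 1.47 FPKM in control. Zfp160 had 2.86 and 2.22 FPKM in knockdown, against 1.56 and 0.917 FPKM in control. Of these 7 genes including Zfp568, 6 carried a KRAB box, where 97 of all 189 Zfp genes carry one. Of the 3 Zfp genes lower at that unadjusted p, 1 carried it, and the share with a box was not tested. The next by p were Zfp931, Zfp948 and Zfp202. Zfp948 was the most abundant of them, with 18.2 and 21.7 FPKM in knockdown, against 12.5 and 16.7 FPKM in control, and Zfp202 rested on knockdown replicate 2, with 1.87 and 4.77 FPKM in knockdown, against 1.22 and 1.37 FPKM in control.

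On the lower side, 3 Zfp genes had an unadjusted p under 0.05, with limma adjusted p-values from 0.625 to 0.664. Zfp707, a KRAB gene on chromosome 15, had 1.29 and 1.03 FPKM in knockdown, against 2.48 and 2.52 FPKM in control. Zfp335, a cofactor of H3K4 methyltransferase complexes with a role in neural progenitors, had 1.303 and 1.137 FPKM in knockdown, against 2.34 and 2.50 FPKM in control. In both genes the replicates were close and the groups apart, with log2 fold changes of -0.70 ± 0.21 and -0.62 ± 0.21 (SE), and 28.3% of the exonic bases of Zfp335 are shared with the antisense gene Pcif1, from which reads cannot be told apart where strand was not used. Zfp622, an assembly factor of the large ribosomal subunit, had 13.7 and 12.6 FPKM in knockdown, against 17.1 and 17.6 FPKM in control. Its log2 fold change was -0.38 ± 0.13 (SE), and it was the most abundant of the 10. Zfp593, another assembly factor of the same subunit, had 12.5 and 12.8 FPKM in knockdown, against 10.7 and 12.2 FPKM in control, with 77.9% of its exonic bases shared with an antisense gene. The next lower genes by p, with both knockdown libraries below both controls, were Zfp251, Zfp672, Zfp27, Zfp637, Zfp667, Zfp143 and Zfp189, with log2 fold changes from -0.41 to -0.24. Fold changes on this scale understate the change of low genes.

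**Figure D4:**
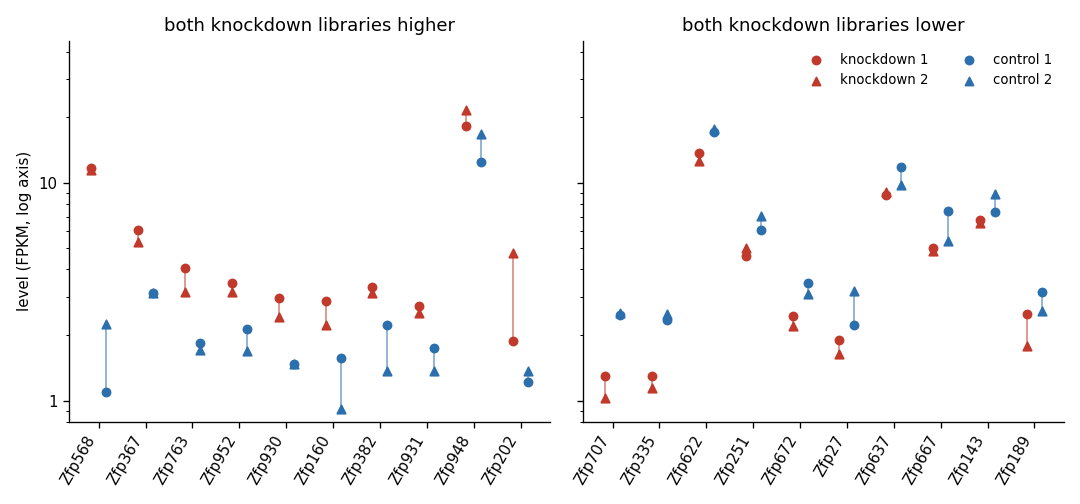
Levels in FPKM (vertical log axis) in each library for the Zfp genes with the lowest unadjusted p among those whose groups did not overlap, 10 with both knockdown libraries higher and 10 with both lower. Knockdown libraries are red and left of control libraries in blue, circles are replicate 1 and triangles replicate 2. Zfp568 has the widest gap, with 11.8 and 11.4 FPKM in knockdown, against 1.09 and 2.24 FPKM in control.

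Some members differed more between replicates than between groups. A gap of 4-fold or more inside a group was seen in 16 Zfp genes, or 8.47%, against 2.18% of all genes tested. At means of 1 to 5 FPKM it was seen in 15 of 140 Zfp genes (10.7%) and in 4.33% of all genes of that level. The gap was in the knockdown group for 12 genes and in the control group for 6, with Zfp959 and Zfp52 in both. In knockdown replicate 1 was the lower in 7 genes and replicate 2 in 5, and in control each replicate was the lower in 3. Over all genes tested at 5 FPKM or more, knockdown replicate 1 was the lower in 15 and replicate 2 in 17. In control these counts were 14 and 4. Whether the gaps followed 1 library was not tested. Zfp422, which promotes muscle differentiation in mouse myoblasts, had 44.1 and 36.2 FPKM in knockdown, against 2.86 and 40.8 FPKM in control. Its control replicate 1 stood alone and the groups overlapped. Its log2 fold change of 1.69 ± 1.00 (SE) rested on that library, being -0.03 without it and 3.41 without control replicate 2, where its limma adjusted p was 0.00928. Zfp62 had 4.94 and 0.429 FPKM in knockdown, against 0.307 and 0.537 FPKM in control, so that its log2 fold change of 1.04 rested on knockdown replicate 1 and was 0.01 without it. Zfp956 had 1.17 and 1.64 FPKM in knockdown, against 0.0387 and 1.86 FPKM in control. Zfp46 had 0.370 and 3.11 FPKM in knockdown, against 1.61 and 3.07 FPKM in control, and Zfp961 had 2.56 and 0.296 FPKM in knockdown, against 3.18 and 1.29 FPKM in control. In these 3 genes also the groups overlapped. Of the 16, Zfp58 shares 50.2% of its exonic bases with Gm26965, and Zfp422 shares none with another gene.

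**Figure D5:**
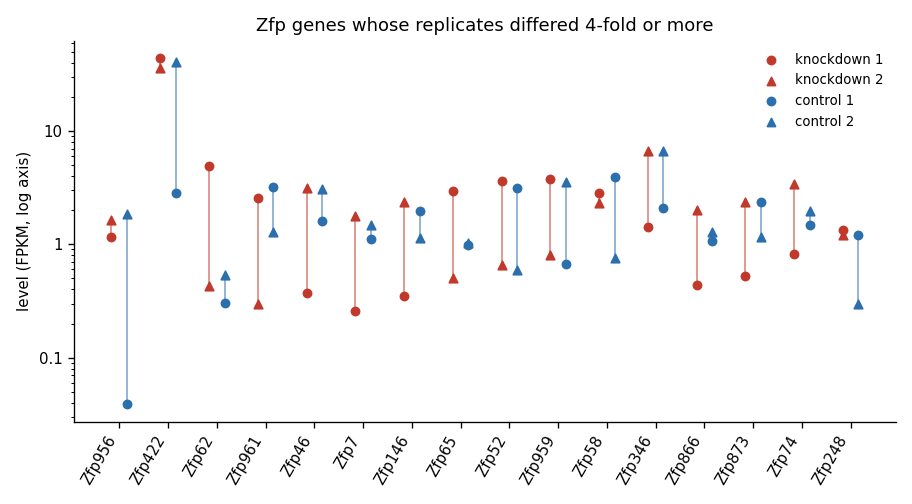
Levels in FPKM (vertical log axis) in each library of the 16 Zfp genes whose replicates differed 4-fold or more in a group, ordered by that gap. Knockdown libraries are red and left of control libraries in blue, circles are replicate 1 and triangles replicate 2. Control replicate 1 of Zfp956 is at 0.0387 FPKM and that of Zfp422 at 2.86 FPKM, far from their partners.

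Members with a known function were taken from a list of 37 genes, of which 27 reached the limit and Zfp274 had no row of that name. The guards of imprints and retroelements were under 5 FPKM in every library. Zfp57, which keeps DNA methylation at imprinting control regions, had 2.46 and 1.44 FPKM in knockdown, against 2.72 and 1.26 FPKM in control. Zfp445, which keeps imprints together with Zfp57, had 4.98 and 4.71 FPKM in knockdown, against 3.07 and 4.45 FPKM in control. Zfp57 overlapped between the groups, and Zfp445 was higher in both knockdown libraries, with a log2 fold change of 0.31 ± 0.22 (SE), which was 0.10 without control replicate 1. Zfp809, which silences murine leukaemia viruses, had 4.22 and 4.60 FPKM in knockdown, against 2.27 and 4.04 FPKM in control, higher in both knockdown libraries. Its log2 fold change was 0.10 without control replicate 1 and 0.73 without control replicate 2. Zfp932, which binds endogenous retroviruses, had 3.71 and 1.69 FPKM in knockdown, against 2.11 and 1.81 FPKM in control, and 24.9% of its 75-base words occur in Gm15446.

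Of the 6 RNA-related members given here, 3 overlapped between the groups, 2 were higher and 1 was lower in both knockdown libraries, and 0 passed the adjusted threshold. Over all genes tested, 22.1% were higher and 16.3% lower in both knockdown libraries. Zfp36 (tristetraprolin), which binds AU-rich elements and starts mRNA decay, had 5.19 and 5.69 FPKM in knockdown, against 5.47 and 5.40 FPKM in control, and its log2 fold change was -0.00 ± 0.17 (SE). Zfp598, the ubiquitin ligase of collided ribosomes, had 1.49 and 2.86 FPKM in knockdown, against 1.37 and 1.45 FPKM in control. Zfp697, an RNA-binding protein of muscle remodelling in mice, had 1.47 and 1.29 FPKM in knockdown, against 1.59 and 1.68 FPKM in control. Zfp598 was higher and Zfp697 lower in both knockdown libraries, with log2 fold changes of 0.36 ± 0.27 and -0.15 ± 0.21 (SE). Without knockdown replicate 2 that of Zfp598 was 0.048. Zfp326, of a complex that couples elongation to splicing, and Zfp346, which binds double-stranded RNA, overlapped between the groups. Zfp638, which recruits the HUSH silencing complex, had 1.75 and 1.94 FPKM in knockdown, against 0.948 and 1.48 FPKM in control, higher in both knockdown libraries, with a log2 fold change of 0.37 ± 0.23 (SE) that was 0.20 without control replicate 1.

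Among the transcription factors, Zfp281, a pluripotency regulator, had 10.98 and 12.01 FPKM in knockdown, against 9.81 and 10.8 FPKM in control. Zfp148, which binds GC-rich promoters, had 5.06 and 5.03 FPKM in knockdown, against 4.09 and 4.74 FPKM in control. Zfp143 (Staf), an activator of small nuclear RNA genes, had 6.78 and 6.55 FPKM in knockdown, against 7.36 and 8.93 FPKM in control. Zfp281 and Zfp148 were higher and Zfp143 lower in both knockdown libraries, with log2 fold changes of 0.14, 0.16 and -0.25 and limma adjusted p-values from 0.794 to 0.879. Zfp410, the activator of Chd4, had 4.95 and 4.92 FPKM in knockdown, against 5.39 and 6.08 FPKM in control, while Chd4 itself had 8.12 and 10.3 FPKM in knockdown, against 9.17 and 7.52 FPKM in control. Zfp521, a lineage factor and Ebf partner, had 4.24 and 4.68 FPKM in knockdown, against 4.55 and 5.62 FPKM in control. Its relative Zfp423, a factor of preadipocyte commitment, was below the limit, as were Zfp516, Zfp217, Zfp503, Zfp644, Zfp687, Zfp711 and Zfp746. The pluripotency marker Zfp42 (Rex1) was listed at 0 in all 4 libraries. Other members with a listed role, Zfp592, Zfp451, Zfp91, Zfp703, Zfp24 and Zfp110, had log2 fold changes from -0.07 to 0.44.

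Genes with and without a KRAB box were set side by side. The median log2 fold change was 0.11 over the 97 genes with the box, 62 of them above 0, and 0.06 over the 92 without, 54 of them above 0. Both knockdown libraries were above both controls in 21 and 20 genes, and below both in 9 and 13. Over all genes tested the shares were 22.1% above and 16.3% below. The difference between these classes was not tested, because members are not replicates of a condition. Finger number did not order the medians strongly, which were 0.05 over 38 genes with 1 to 5 fingers, 0.11 over 76 with 6 to 11 and 0.12 over 70 with 12 or more.

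The genes were unevenly placed in the genome, with 48 on chromosome 7 and 29 on chromosome 17. Taking neighbours at most 500 kb apart, 60 genes fell into 8 clusters of 4 or more. The largest, on chromosome 17 from 21008903 to 22456689 (GRCm38), held 13 genes, all with a KRAB box, and included Zfp160 and Zfp948. Its median log2 fold change was 0.11, with 10 genes above 0. A second cluster on chromosome 17, from 32765496 to 33631779, held 10 genes with a median of 0.05, 5 above and 5 below 0. A cluster on chromosome 7 from 127233061 to 127885996 had 8 genes, 3 with a KRAB box, and a median of -0.10 with 6 below 0. The 4 genes Zfp58, Zfp87, Zfp748 and Zfp65 on chromosome 13 were all above 0, between 0.28 and 0.61, but in each the groups overlapped. Copies in a cluster can share reads, and 8 of the 189 genes had over 20% of their 75-base words in another gene, while 21 shared over 10% of their exonic bases with another row.

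Zfp763 and Zfp952 are next to each other among the members of the second chromosome 17 cluster and were both higher in the knockdown libraries, so their RefSeq promoters (GRCm38.p6, 250 bases before to 50 after the start) are shown. That of Zfp763 is chr17:33033332-33033631 on the minus strand, and that of Zfp952 is chr17:32992889-32993188 on the plus strand. Capitals mark CAGCTG, the E-box core bound by MyoD, which reads the same on both strands.
Zfp763: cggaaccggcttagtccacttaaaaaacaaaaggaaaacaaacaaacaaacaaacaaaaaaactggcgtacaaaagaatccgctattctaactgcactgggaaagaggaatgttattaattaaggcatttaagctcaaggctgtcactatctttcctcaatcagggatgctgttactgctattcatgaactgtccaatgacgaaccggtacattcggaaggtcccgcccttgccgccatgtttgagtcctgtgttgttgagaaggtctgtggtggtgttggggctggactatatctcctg
Zfp952: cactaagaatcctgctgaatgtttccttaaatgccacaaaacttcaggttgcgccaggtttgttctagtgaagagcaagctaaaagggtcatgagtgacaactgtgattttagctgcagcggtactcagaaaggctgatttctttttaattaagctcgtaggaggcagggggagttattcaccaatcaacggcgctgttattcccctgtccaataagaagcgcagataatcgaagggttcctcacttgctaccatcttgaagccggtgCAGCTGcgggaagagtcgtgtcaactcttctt

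The word CAGCTG occurred once in the Zfp952 window and not in that of Zfp763. Promoters of 157 of the 189 genes were found in the RefSeq table, 190 in all, and 18.4% of them held CAGCTG, against 16.3% of all 32851 promoters. The word ACTACAA, the core of the site of Zfp143, searched on both strands, occurred in 5.79% of the Zfp promoters and in 3.24% of all. The median number of CpG dinucleotides was 15 in the Zfp promoters and 7 in all. A match is a word in the window and not a bound site.

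Among the partners of KRAB proteins, Trim28 had 23.1 and 20.9 FPKM in knockdown, against 19.7 and 19.5 FPKM in control, and Setdb1 had 2.67 and 3.96 FPKM in knockdown, against 3.02 and 3.11 FPKM in control. Trim28 was higher in both knockdown libraries, with a log2 fold change of 0.16 ± 0.13 (SE), and Setdb1 overlapped between the groups. Of 27 tested genes of the KRAB co-repressor and heterochromatin list, 0 passed the adjusted threshold. At an unadjusted p under 0.05, 1 was higher and 0 lower, where the shares of all genes tested were 4.39% and 2.7%. The median log2 fold change was 0.12, with 20 above 0. Both knockdown libraries were above both controls in 10 of the 27 and below in 3, where over all genes tested the shares were 22.1% and 16.3%. That 1 gene was Atrx, a chromatin remodeller of heterochromatin, with 3.80 and 4.44 FPKM in knockdown, against 1.79 and 2.43 FPKM in control. Of 3 tested HUSH complex genes and 17 tested genes of the CCR4-NOT deadenylase and its Zfp36-related partners, 0 passed at either p, with medians of 0.18 and 0.11. Both knockdown libraries were above in 0 of the 3 and 6 of the 17, and below in 0 and 2. Without control replicate 1 the median of the 17 was -0.02.

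Marker genes were set beside the label of the cells. Myogenic markers were high, with the summed level of the 10 listed genes at 5683 and 5145 FPKM in knockdown, against 6820 and 6468 FPKM in control, led by Myog with 3406 and 2793 FPKM in knockdown, against 4196 and 3931 FPKM in control. Of the 9 tested, 0 passed the adjusted threshold, and Myog and Mymk were lower at an unadjusted p under 0.05, as were 2.7% of all genes tested. Both knockdown libraries were above both controls in 1 of the 9 and below in 4. Over all genes tested those shares were 22.1% and 16.3%. Pax7, a marker of satellite cells, had 1.40 and 0.625 FPKM in knockdown, against 1.02 and 0.859 FPKM in control. Its mean of 0.975 FPKM was below the limit. The myogenic sum came mostly from Myog, Chrna1, Myod1 and Mymk, with means of 3582, 934, 660 and 335 FPKM, and did not rest on Pax7. Markers of other cells were low. Summed over 5 genes each, fibro-adipogenic markers reached 2.52 to 3.32 FPKM in knockdown, against 4.34 to 4.79 FPKM in control, endothelial markers 1.34 to 2.68 against 0.889 to 1.81, macrophage markers 0.271 to 1.07 against 0.607 to 1.09, and Schwann markers 0.0113 to 1.40 against 0.269 to 0.556. Adgre1 of macrophages was listed at 0 throughout. Smooth muscle markers summed to 2672 and 2578 FPKM in knockdown, against 3167 and 3023 FPKM in control, nearly all of it Acta2, which cultured myoblasts also express, while Myh11 was at most 0.0337 FPKM. The part of these shifts in the Zfp values was not tested, and in bulk RNA fewer cells of a type and less RNA per cell cannot be told apart.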

How the data were processed

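Full-length cDNA was amplified with a SMART-Seq kit and sheared, and both ends were read over 150 nt, per the labels' protocols. Tools named in the submitters' processing notes, in no order, are StringTie 1.3.3, SAMtools 1.3, HISAT2 2.1.0, Trimmomatic 0.36 and bcl2fastq 2.19, with the build mm10. Annotation release and use of strand: not given in the sources used here. The authors deposited 1 table of FPKM per gene, the unit being read from the values: columns summed to between 317223 and 322496. In single-exon genes low values fell on whole multiples of a step, within 0.1 of a step, in 83.7% to 84.7% of cases (chance 20%), which gave the relative depth. Whole counts could not be had for multi-transcript genes, so no count model was used.

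All 10900 genes that averaged 1 FPKM or more were fitted with limma 3.58.1 in R 4.3.3 on log2(FPKM + 1), with a mean-variance trend, two-sided tests and Benjamini-Hochberg adjustment. The steps were run on simulated data with normal noise. Single low libraries as in Zfp422 were not put in, so that run does not cover such genes. Tables and plots used Python 3.11.15, numpy 2.4.6, pandas 2.3.3 and matplotlib 3.10.9. Coordinates, exons and coding sequences came from GENCODE M21 (GRCm38), in which all 189 members were found, and promoters from RefSeq. KRAB boxes and fingers were found by sequence patterns in translated coding sequences, so a degenerate box can be missed. Members, roles and lists were chosen with earlier results of these data known. Named genes were Zfp568, the 10 lowest p per direction among members whose groups did not overlap, the highest means, members with a listed role, those next to the 1 FPKM limit or within 1 Mb of Zfp568, and the lowest p of each list. Zfp62, Zfp956, Zfp46, Zfp961, Zfp330 and C230062I16Rik were named after their values were seen. Alternatives were another pseudocount, filter or scaling, no trend, a replicate block and each library left out.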

Additional observations from a re-analysis of the deposited data

How the results depend on the processing

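Half-widths of the interval were wider than most differences, with a median of 0.58 over the Zfp genes and 0.48 over all genes tested. There were 2 libraries per group and most Zfp levels were low, and the part of either in these widths was not tested. With control replicate 2 left out, Zfp422 was the 1 Zfp gene called, and the count of called Zfp genes was otherwise 0 under each alternative run. The replicate block gave 3 genes called over the table and 0 Zfp genes, with an adjusted p of 0.254 for Zfp568, whose adjusted p ran from 0.0543 without control replicate 2 to 0.727 with no filter over the alternatives. Deviations of same-numbered libraries from their group means had a correlation of -0.021 over 10900 genes and 0.141 over the 189 Zfp genes, and with 2 pairs and no label that ties them the numbers were not taken as pairs. Without a filter 0 genes were called by limma, and 7 Zfp genes had an unadjusted p under 0.05. A filter at 5 FPKM left 49 Zfp genes, of which 2 had an unadjusted p under 0.05, 27 were above 0, 9 had both knockdown libraries higher and 8 both lower. Quantile normalization gave 29 higher and 27 lower, against 41 and 22 as deposited. The shares of all genes with this filter and this normalization are not given here. The median log2 fold change was 0.12 at a pseudocount of 0.1 FPKM, 0.10 at 0.5, 0.042 with the filter at 5 FPKM, 0.030 after quantile normalization, 0.069 after median ratio scaling, and 0.067 to 0.11 leaving out 1 library. Leaving out 1 library gave 5 to 15 genes called (15 without knockdown replicate 1), 0 to 1 Zfp genes called, 9 to 18 with an unadjusted p under 0.05, 72 to 83 with knockdown above and 45 to 53 with it below. There the lone library of a group is assumed to vary like the other group. Groups that are apart stay apart when a library is dropped, so the counts above and below can only rise. They are therefore not a stronger result than 41 and 22, and the shares of all genes in these runs are not given here. The cause of the change in genes called was not tested. Of 604 pairs of 53 named genes and alternatives, 25 had the opposite sign, none of them in a gene whose groups did not overlap, where leaving out a library cannot turn it. Zfp57 was -0.078 after quantile normalization and -0.015 after median ratio scaling, and Zfp326 was -0.051 after quantile normalization. Leaving out 1 library, the log2 fold change ran from -0.058 to 0.13 for Zfp106, -0.13 to 0.014 for Zfp110, -0.089 to 0.021 for Zfp207, -0.16 to 0.20 for Zfp326, -0.023 to 0.12 for Zfp330, -1.004 to 0.65 for Zfp346, -0.056 to 0.055 for Zfp36, -0.031 to 3.41 for Zfp422, -0.095 to 0.40 for Zfp451, -1.25 to 0.34 for Zfp46, -0.35 to 0.36 for Zfp57, -0.046 to 0.27 for Zfp655, -0.31 to 0.16 for Zfp703, -0.47 to 0.15 for Zfp869, -0.14 to 0.67 for Zfp932, -0.26 to 1.20 for Zfp956 and -1.26 to 0.20 for Zfp961.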

Other observations

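Zinc finger genes named otherwise than Zfp with digits were looked at beside the family, with 0 called by limma at an adjusted p under 0.05 in each list. Of 24 tested Zbtb genes, which pair zinc fingers with a BTB domain, 16 had a log2 fold change above 0, the median was 0.06, and 1 was higher and 0 lower at an unadjusted p under 0.05. That was Zbtb6, with 1.87 and 2.21 FPKM in knockdown, against 1.12 and 1.10 FPKM in control. Over all genes tested, 4.39% were higher and 2.7% lower at an unadjusted p under 0.05. The median was 0.06 over 14 Zfp genes with a letter suffix, -0.02 over 6 Zscan genes, 0.33 over 6 Zkscan genes, 0.10 over 8 Klf genes, -0.07 over 7 Zfand genes and 0.13 over 10 Zc3h genes. Zfand6, an AN1-type finger gene, was the 1 gene of these lists lower at an unadjusted p under 0.05, with 25.9 and 22.3 FPKM in knockdown, against 33.7 and 32.1 FPKM in control, and Zc3h11a was the 1 Zc3h gene higher, with 1.61 and 3.11 FPKM in knockdown, against 1.19 and 0.660 FPKM in control.

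Zbtb9 and Zfp280b had the same kind of single low library as Zfp422. Zbtb9 had 8.69 and 7.86 FPKM in knockdown, against a library listed at 0 and 6.85 FPKM in control. Zfp280b had 5.44 and 2.02 FPKM in knockdown, against 0.0467 and 2.16 FPKM in control. In each the low library was control replicate 1, and both genes were chosen after their values were seen.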
